A study of Mus musculus and Homo sapiens with 34 samples.

Results

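The 10 genes described here belong to the BCL2 family, whose proteins decide whether a cell opens its mitochondrial outer membrane and dies by apoptosis. They are Bcl2, Bcl2l1, Mcl1, Bcl2l11, Bmf, Bbc3, Pmaip1, Bid, Bax and Bak1, written in capitals for the human genes, and they were taken by name from the 7 count tables of the study. The tables hold 48431 distinct gene identifiers in all. Every member had a row in every table, and every member passed the filter on low counts in every table except BCL2 in the human line H358.

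The family has guardians, messengers and effectors. The guardians BCL2, BCL-XL (gene Bcl2l1) and MCL1 hold the membrane closed, and BAX and BAK (gene Bak1) are the effectors that perforate it. The messengers, called BH3-only proteins, are BIM (Bcl2l11), BMF, PUMA (Bbc3), NOXA (Pmaip1) and BID, which occupy the guardians or switch on the effectors. ERK activity marks BIM for destruction, and inhibitors of the ERK pathway are known to raise BIM and BMF. PUMA and NOXA are known targets of p53, and FOXO transcription factors are known to act on the BIM and PUMA genes.

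RNA was sequenced in 34 libraries, 2 for each of 17 groups, of which 22 came from cultured mouse lung tumours and 12 from lung adenocarcinoma lines of human origin. The 3154 organoids carry p53frt, Rosa-FSF-CreERT2 and Hnf4aflox, so tamoxifen-activated Cre, expressed from the Rosa locus, can remove Hnf4a. In 1 experiment they were collected 2 weeks after 2 days of ethanol (EtOH) or 4-hydroxytamoxifen (4OHT, 2 mM per the labels). In another, all groups were kept for 48 hours and were EtOH with vehicle, EtOH with 3 nM MRTX1133, 4OHT with vehicle, or 4OHT with 3 nM MRTX1133. For this 48-hour experiment the labels give no dose or exposure of 4OHT, so the time since deletion is not known. MRTX1133 is an inhibitor that acts upstream of ERK. The 1027B organoids and the 3311 cell line carry the same p53 and Cre alleles with Foxa1flox and Foxa2flox, but the labels give no deletion of Foxa1 or Foxa2 here. For 1027B the treatments were vehicle, trametinib, a MEK inhibitor, at 10 nM, or MRTX1133 at 20 nM, and 3311 received vehicle or 50 nM trametinib, all for 48 hours. Trametinib at 20 nM, or its vehicle, was given to the human lines H358 and H1651, again for 48 hours. In a separate experiment, H1651 with a lentiviral HNF4α construct was kept for 7 days without or with 1 µg/mL doxycycline. Each culture is 1 line, so none of the results is replicated over tumours, and the labels do not say whether replicates 1 and 2 of a group were grown separately. The p values therefore measure the spread between libraries, which may be technical.

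The promoters shown are those of Bcl2l11 and Bbc3, known FOXO targets whose windows hold the FOXO motif, and, for contrast, that of Bmf, the member that the inhibitors changed most often. The sequences are the 250 bases before a RefSeq start site in mouse build GRCm38.p6, written 5′ to 3′ on the gene's strand. The capitals mark the letters of the FOXO motif GTAAACA, read on either strand. Bcl2l11 lies on chromosome 2, plus strand, and its first start site gives chr2:128125788-128126037. Bbc3 lies on chromosome 7, plus strand, and its second start site gives chr7:16310011-16310260. Bmf lies on chromosome 2, minus strand, and its first start site gives chr2:118549687-118549936.
Bcl2l11: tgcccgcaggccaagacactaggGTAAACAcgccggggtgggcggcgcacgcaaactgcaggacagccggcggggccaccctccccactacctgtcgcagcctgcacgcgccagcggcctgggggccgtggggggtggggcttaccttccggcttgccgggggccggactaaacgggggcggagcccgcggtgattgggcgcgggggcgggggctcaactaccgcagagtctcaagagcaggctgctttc
Bbc3: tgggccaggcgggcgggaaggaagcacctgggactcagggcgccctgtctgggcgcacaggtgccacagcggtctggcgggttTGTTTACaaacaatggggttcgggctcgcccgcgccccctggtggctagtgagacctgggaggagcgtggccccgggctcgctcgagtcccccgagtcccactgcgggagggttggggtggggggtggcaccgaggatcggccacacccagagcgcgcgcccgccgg
Bmf: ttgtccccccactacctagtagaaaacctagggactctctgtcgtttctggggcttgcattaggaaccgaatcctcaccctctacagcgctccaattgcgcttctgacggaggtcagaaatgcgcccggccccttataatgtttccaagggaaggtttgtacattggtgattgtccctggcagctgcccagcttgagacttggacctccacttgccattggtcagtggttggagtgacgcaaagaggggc

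RefSeq windows of 300 bases, from 250 before to 50 after the start, were searched for 9 of the 10 members. Pmaip1 was left out of this search. GTAAACA was found in 1 of 2 windows of Bcl2l11 and in 1 of 3 windows of Bbc3, and in no window of the other members searched. Over all 32851 windows, 3.65% held it on either strand. The AP-1 motif TGANTCA, which does not overlap the FOXO motif, was in no window of the members searched and in 7.81% of all windows. The 3 Bmf windows held neither motif. A match is a description of letters, not evidence of binding, and its absence says only that these letters are not in the window.

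Total counts ran from 19692517 to 45284286 per library. All 6 epithelial markers (Epcam, Cdh1, Krt8, Krt18, Krt19 and Cldn7) exceeded 3 counts in every library, and their summed level was at least 3705 CPM. CPM are read counts scaled to a common library total, here with edgeR's TMM factors within a table. Levels are given as mean ± SD of n = 2 libraries unless single libraries are named. A change is a log2 difference from edgeR's quasi-likelihood test, and a gene was called at a Benjamini-Hochberg adjusted p under 0.05 over all genes of its table. Hnf4a was lower in all 4OHT libraries than in their EtOH controls (for example 221 and 230 against 49.4 and 50.4 CPM at 48 hours with vehicle), HNF4A was higher with doxycycline (35.9 and 47.1 against 94.4 and 96.8 CPM), and HNF4A had no count in H358. Trp53 RNA was present in the mouse lines, at 7.46 to 8.44 CPM in 3311 and at 54.2 to 106 CPM in the organoids. The mouse genes Bid, Bak1 and Bcl2 lie opposite another gene over 17.7%, 25.5% and 6.09% of their exon bases (Bcl2l13, Ggnbp1 and D630008O14Rik), and 12.2% of those of Bax are shared with Gm45808. Reads there cannot be assigned with certainty, since the use of strand in counting is not given in the sources used here. In bulk RNA, fewer cells of a kind and less RNA per cell cannot be told apart.

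Without inhibitors, the mouse cultures held much more RNA of the guardian Mcl1 and of both effectors than of the guardian Bcl2. Per kb of exon, Mcl1 stood at 51.6 ± 2.64 CPM in 3154 (2-week EtOH), 70.5 ± 2.66 in 1027B and 41.6 ± 2.19 in 3311. Bcl2 stood at 0.925 ± 0.0254, 1.03 ± 0.0569 and 2.15 ± 0.456 CPM per kb in the same 3 groups, and had the lowest mean in each. In 3311 its libraries overlapped those of Bid. Bcl2l1 was near Mcl1 in 3154, with 54.4 ± 4.29 CPM per kb, a difference within the spread of the libraries, and was lower than Mcl1 in 3311, with 22.7 ± 4.37. Bax and Bak1 stood between 35.99 and 43.8 and between 29.3 and 40.5 CPM per kb in the 3 groups. The means of the BH3-only genes were lower than those of the effectors in each of the 3 groups, Bmf being the highest of them in 3154 (28.3 ± 11 CPM per kb). In the other untreated 3154 group, EtOH with vehicle at 48 hours, the order was different. Bax had the highest mean there, 73.3 ± 12.1 CPM per kb, beside 60.5 ± 3.23 for Mcl1 and 43.8 ± 10.5 for Bcl2l1, and Bmf stood at 14.3 ± 0.805. Bcl2l11 and Pmaip1 stood at different levels in 1027B and 3311: Bcl2l11 stood at 14.9 ± 2.53 CPM per kb in 1027B and 2.63 ± 0.0446 in 3311, and Pmaip1 at 2.52 ± 0.145 and 13.1 ± 0.811. The tables were scaled separately, so these differences between lines were not tested.

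**Figure D1:**
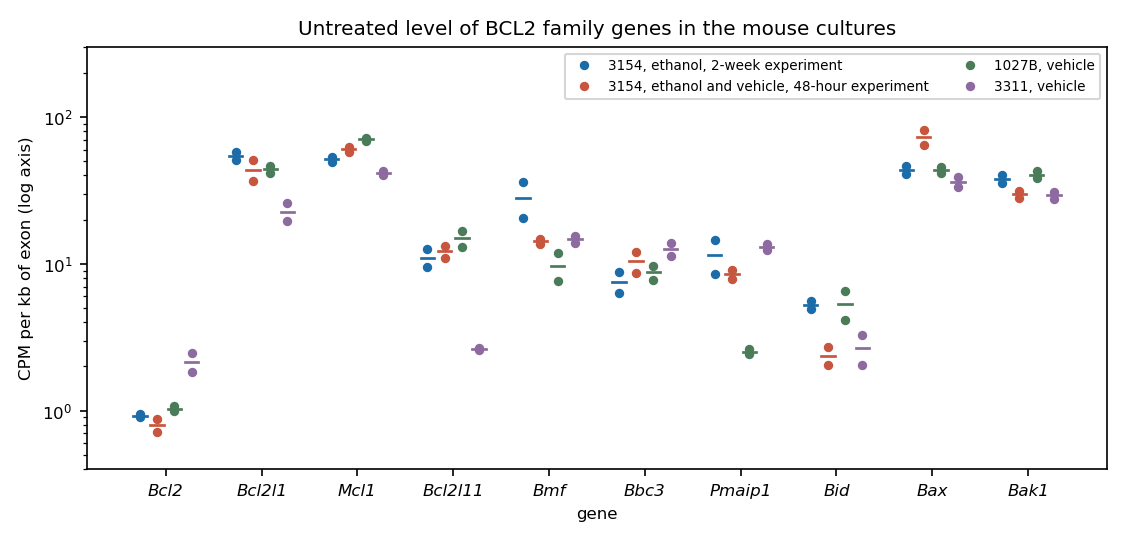
Level of each member in untreated mouse cultures, in CPM per kb of exon on a log axis. Points are single libraries, bars are means of n = 2, and the mean of Bcl2 is the lowest in all 4 groups. In 3311 the points of Bcl2 and Bid overlap.

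Trametinib in H358 gave the largest response of any member. BMF, the BH3-only protein tied to the cytoskeleton in resting cells, stood at 8.93 and 9.49 CPM with vehicle and at 210 and 181 CPM with trametinib, and the groups did not overlap. This is a rise of 4.41 ± 0.13 (SE) in log2, or 21.2-fold (edgeR, adjusted p = 1.4e-06). BCL2L11 rose from 47.6 and 51.9 to 94.2 and 92.1 CPM, by 0.91 ± 0.11 in log2 (adjusted p = 0.000312). PMAIP1, which encodes NOXA, the partner of MCL1, went the other way, from 66.1 and 57.2 to 26.1 and 20.5 CPM, a change of -1.40 ± 0.15 (adjusted p = 0.000213). BID fell as well, from 30.8 and 35.4 to 14.7 and 23.2 CPM (-0.81 ± 0.21, adjusted p = 0.0131). So the BH3-only genes did not move together: 2 rose, 2 fell, and BBC3, at 9.10 ± 1.9 against 12.9 ± 0.61 CPM, did not pass (0.50 ± 0.18, adjusted p = 0.0533). BBC3 was called higher with upper-quartile factors (adjusted p = 0.0382) and with no filter on low counts (0.0436).

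Among the guardians in H358, BCL2L1 rose from 211 and 187 to 257 and 272 CPM (0.41 ± 0.11, adjusted p = 0.014). MCL1 fell from 591 and 581 to 467 and 489 CPM (-0.29 ± 0.10, adjusted p = 0.037). BCL2 had 1 count in each vehicle library and 0 in each trametinib library, where a count of 0 allows up to 0.0645 and 0.118 CPM, so no change was measurable. Of the effectors, BAK1 fell from 38.2 and 35.8 to 26.2 and 28.9 CPM (-0.43 ± 0.12, adjusted p = 0.0215), and BAX, at 31.3 ± 2.1 against 24.9 ± 1.0 CPM, did not pass (adjusted p = 0.0604). In all, 7 of 9 tested members were called, 3 higher and 4 lower, beside 46.8% of all genes tested. Calls for BMF, BCL2L11, PMAIP1 and BID held without any 1 of the 4 libraries, and those for BAK1 (adjusted p up to 0.0985), MCL1 (up to 0.115) and BCL2L1 (0.123 without vehicle replicate 2) did not. BAK1 and MCL1 lost their calls without vehicle replicate 1, vehicle replicate 2 or trametinib replicate 1, and MCL1 also with upper-quartile scaling (adjusted p = 0.056). The summed level of the 6 fibroblast markers moved with the drug, from 33.4 and 37.7 to 119 and 148 CPM. COL1A1 made up most of it in both groups, 3 or 4 of the 6 markers exceeded 3 counts with vehicle and all 6 with trametinib, and DCN had no count with vehicle. The summed epithelial markers went from 5651 and 5458 to 3705 and 4009 CPM, with 3 of 6 called lower and CDH1 called higher, and the summed endothelial markers from 12.1 and 14.4 to 21.1 and 21.2 CPM, with 1 of 4 called, higher. The part of these markers in the changes was not tested.

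H1651, given the same dose for the same time, showed no called change in any of the 10 members in the fit without a replicate block, but that fit called no gene at all. The background was thus 0% of 18277 genes. An unadjusted p under 0.05 was reached by 597 genes (3.27%) and 1 member, and DESeq2 called 44 genes (0.241%) and no member. The ERK target DUSP6 stood at 49.8 and 51.8 CPM with vehicle and at 5.27 and 7.46 CPM with trametinib, with no overlap. BMF stood at 25.4 and 16.9 against 39.8 and 29.7 CPM, both treated libraries above both vehicle libraries, with a log2 difference of 0.71 (95% interval 0.09 to 1.34, adjusted p = 0.999). BCL2L11 stood at 16.8 and 16.6 against 18.1 and 16.4 CPM (0.05, interval -0.25 to 0.34), and PMAIP1 at 11.7 and 11.1 against 9.86 and 9.65 CPM (-0.23, interval -0.55 to 0.09). The other 7 members had differences between -0.17 and 0.15.

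The difference between the responses of the lines was itself tested in 1 fit of the 8 libraries. It was called for 3 members, beside 19.3% of all genes (9.43% with a higher response in H358, 9.86% with a lower one). The BMF response was larger in H358 by 3.72 ± 0.30 in log2 (adjusted p = 0.000365) and that of BCL2L11 by 0.89 ± 0.15 (adjusted p = 0.0047). The PMAIP1 response was more negative in H358, by -1.14 ± 0.21 (adjusted p = 0.00806). For the guardian BCL2L1 the difference was 0.46 (interval 0.12 to 0.81, adjusted p = 0.0644) and for MCL1 it was -0.12 (interval -0.40 to 0.16, adjusted p = 0.54). BCL2 gives no difference because it was at the floor of 3 counts in H358. Before treatment the lines also stood apart: the vehicle libraries of H1651 held more BMF (16.9 and 25.4 CPM) and less BCL2L11 and PMAIP1 than those of H358, levels that come from tables scaled separately and were not tested.

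**Figure D2:**
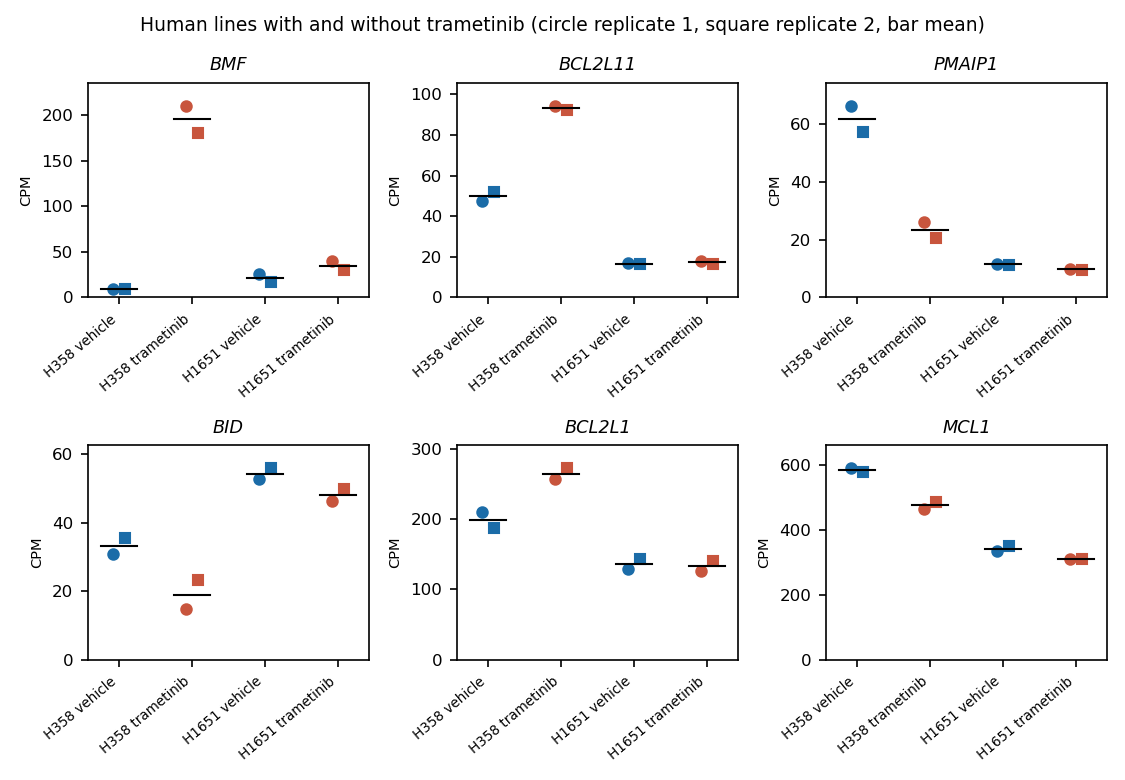
CPM of 6 members in each library of H358 and H1651 with vehicle (blue) or 20 nM trametinib (red); bars are means of n = 2. BMF with trametinib in H358, at 181 and 210 CPM, is above every other library, while PMAIP1 falls in H358 and lies between 9.65 and 11.7 CPM in H1651.

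In the mouse line 3311, trametinib raised 3 BH3-only genes and 2 guardians. Bmf rose from 73.3 and 81.5 to 169 and 142 CPM, by 1.01 ± 0.15 in log2 (adjusted p = 0.00304). Bid, which links death receptors to mitochondria, rose from 7.28 and 11.7 to 21.8 and 26.0 CPM, by 1.33 ± 0.26 (adjusted p = 0.0087). Bcl2l11 rose from 20.9 and 21.4 to 38.5 and 34.4 CPM (0.79 ± 0.16, adjusted p = 0.00861). The guardian Mcl1 rose from 148 and 137 to 238 and 227 CPM (0.71 ± 0.13, adjusted p = 0.00701) and Bcl2 from 16.8 and 22.7 to 34.3 and 34.1 CPM (0.80 ± 0.19, adjusted p = 0.0169). The groups did not overlap for any of these 5 genes.

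Pmaip1 was the single member called lower in 3311, from 37.3 and 34.2 to 22.1 and 25.6 CPM (-0.59 ± 0.16, adjusted p = 0.0271). Bcl2l1 had 104 ± 20 CPM with vehicle and 77.9 ± 5.6 with trametinib (-0.42 ± 0.17, adjusted p = 0.0876), and Bbc3 had 26.8 ± 3.8 and 21.2 ± 3.2 (adjusted p = 0.204). The effectors did not pass: Bax differed by 0.12 (interval -0.21 to 0.45) and Bak1 by -0.04 (interval -0.35 to 0.27). The 6 called members stand beside 39% of all genes called (19.4% higher, 19.6% lower). The Pmaip1 call was lost without vehicle replicate 1, trametinib replicate 1 or trametinib replicate 2 (adjusted p = 0.068, 0.214 and 0.059), and the Bcl2l11 call without trametinib replicate 1 (0.0705). The share of mitochondrial counts was 1.44% and 1.45% with vehicle and 3.12% and 3.35% with trametinib, and the summed level of leukocyte markers, of which 2 of the 3 in this table exceeded 3 counts in each library, was 9.55 and 15.7 against 21.8 and 28.6 CPM, with Csf1r called higher and Cd68 called lower. The summed fibroblast markers went from 21.5 and 26.2 to 17.5 and 17.3 CPM, with Col1a1 called higher and Pdgfra lower among 3 tested, and 1 of 6 epithelial markers, Krt18, was called lower. The part of these shares and markers in the changes was not tested.

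In the 1027B organoids, Bmf again responded to trametinib, from 40.1 and 61.9 to 190 and 159 CPM, a rise of 1.78 ± 0.21 in log2, or 3.42-fold (adjusted p = 0.00228). Bid rose from 23.2 and 14.6 to 41.5 and 36.8 CPM (1.05 ± 0.24, adjusted p = 0.0202) and Mcl1 from 247 and 234 to 384 and 351 CPM (0.61 ± 0.10, adjusted p = 0.00723). Both a guardian and an effector fell, Bcl2l1 from 192 and 213 to 146 and 154 CPM (-0.43 ± 0.10, adjusted p = 0.02) and Bax from 72.1 and 65.9 to 39.6 and 45.6 CPM (-0.70 ± 0.12, adjusted p = 0.00751). Bcl2l11, which stood at 105 and 134 CPM with vehicle, was at 93.9 and 117 CPM with trametinib, with overlapping groups and a difference of -0.18 (interval -0.60 to 0.23, adjusted p = 0.473). The 5 called members stand beside 26.7% of all genes. The summed epithelial markers went from 9391 and 9231 to 7559 and 8407 CPM with trametinib (1 of 6 called higher, 2 lower). The summed leukocyte markers went from 8.28 and 7.85 to 7.26 and 6.62 CPM, with Csf1r called higher and Ptprc lower among 3 tested. With MRTX1133 these sums were 8284 and 8144 CPM and 5.53 and 5.43 CPM. The part of these markers in the changes was not tested.

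In 1027B, same-numbered libraries deviated together, and with the replicate number as a block 2 more members were called with trametinib, 7 of 10 beside 44.9% of all genes in the same fit. Bcl2 had 9.78 and 9.05 CPM with vehicle and 15.4 and 12.4 with trametinib (adjusted p = 0.0612 without and 0.0121 with the block). Bbc3 had 16.6 and 20.6 against 23.5 and 24.2 CPM (adjusted p = 0.133 without and 0.0359 with the block). Pmaip1, at 6.89 ± 0.40 against 9.33 ± 2.0 CPM, was called by neither fit (adjusted p = 0.192 without the block), nor was Bak1 (-0.14, interval -0.37 to 0.10). Without trametinib replicate 1, the calls of Bax, Bid, Bcl2l1 and Mcl1 were lost (adjusted p = 0.0565, 0.104, 0.121 and 0.0529). Without vehicle replicate 2 those of Bid and Bcl2l1 were lost (0.0599 and 0.109), and without trametinib replicate 2 that of Bcl2l1 (0.0574).

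MRTX1133 at 20 nM acted on the same vehicle libraries, so its changes are not independent of those above. Bmf was the one member called, rising from 40.1 and 61.9 to 111 and 117 CPM, by 1.17 ± 0.20 in log2 (adjusted p = 0.026), beside 6.27% of all genes (3.01% higher, 3.26% lower). With the replicate block 6 of 10 members were called, beside 24.1% of all genes. Bid (18.9 ± 6.1 against 32.8 ± 6.0 CPM), Bcl2 (9.41 ± 0.52 against 15.1 ± 1.5) and Mcl1 (241 ± 9.1 against 297 ± 14) were higher, with adjusted p = 0.00334, 0.00943 and 0.011. Bcl2l1 (202 ± 15 against 160 ± 3.1 CPM) and Bax (69.0 ± 4.3 against 51.4 ± 1.3) were lower, with adjusted p = 0.012 and 0.0174. Bcl2l11 (-0.14, interval -0.55 to 0.27), Bbc3 (0.03, interval -0.34 to 0.40), Pmaip1 (-0.30, interval -0.84 to 0.24) and Bak1 (0.02, interval -0.22 to 0.25) were called by neither fit. Without the block, the Bmf call was lost without vehicle replicate 1 or either MRTX1133 library (adjusted p = 0.0637, 0.0938 and 0.0995).

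Set against each other at 10 nM trametinib and 20 nM MRTX1133, doses that differ, the drugs gave no called difference in any member or in any of the 14555 genes (0%), although 3 members and 2357 genes (16.2%) had an unadjusted p under 0.05 and DESeq2 called 712 genes (4.89%) and no member. With the replicate block 2050 genes (14.1%) were called, among them Bmf, lower with MRTX1133 by -0.62 (adjusted p = 0.0438), and Mcl1, lower by -0.31 (adjusted p = 0.0164). Pmaip1 had 7.92 and 10.7 CPM with trametinib and 5.98 and 5.18 CPM with MRTX1133, a difference of -0.74 (interval -1.27 to -0.20, adjusted p = 0.202). Dusp6, the check on ERK output, stood at 246 and 296 CPM with vehicle, 114 and 123 with MRTX1133 and 30.4 and 47.5 with trametinib. The treated groups thus differed in Dusp6 level as well as in the drug.

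In the 3154 organoids, 3 nM MRTX1133 called no member, with Hnf4a or after its deletion, although 2 and 4 members had an unadjusted p under 0.05, beside 11.8% and 20.4% of all genes. DESeq2 called 0 and 3 members, beside 2.13% and 8.63% of all genes. With Hnf4a, 0.349% of all genes were called (0.317% higher, 0.0323% lower) and the Dusp6 values overlapped, at 135 and 212 CPM with vehicle and 134 and 193 with the drug. Bmf stood at 72.0 and 78.0 against 99.9 and 81.0 CPM (0.27, interval -0.07 to 0.61, adjusted p = 0.534) and Bid at 7.24 and 9.61 against 12.4 and 11.3 CPM (0.49, interval 0.08 to 0.90, adjusted p = 0.336). After deletion 4.64% of all genes were called (2.1% higher, 2.54% lower), and the largest differences were in 2 BH3-only genes. Bbc3 stood at 9.37 and 7.41 against 18.9 and 14.9 CPM (1.01 ± 0.26, adjusted p = 0.0709), and Bmf at 64.7 and 68.4 against 96.5 and 111 CPM (0.64 ± 0.15, adjusted p = 0.051), both without overlap. Each was called in some other fits: Bbc3 with DESeq2 (adjusted p = 0.0107) and in a fit of these 2 groups alone (0.00282), and Bmf in the same fits (0.0063 and 0.00218). The fit of the 2 groups alone called 5 members, beside 25.2% of all genes. Pmaip1 did not differ measurably after deletion, at 2.96 and 4.33 against 4.57 and 3.02 CPM (0.06, interval -0.58 to 0.70). Mitochondrial counts after deletion made up 1.02% and 1.15% with vehicle and 1.39% and 1.38% with the drug. Their part in these values was not tested.

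**Figure D3:**
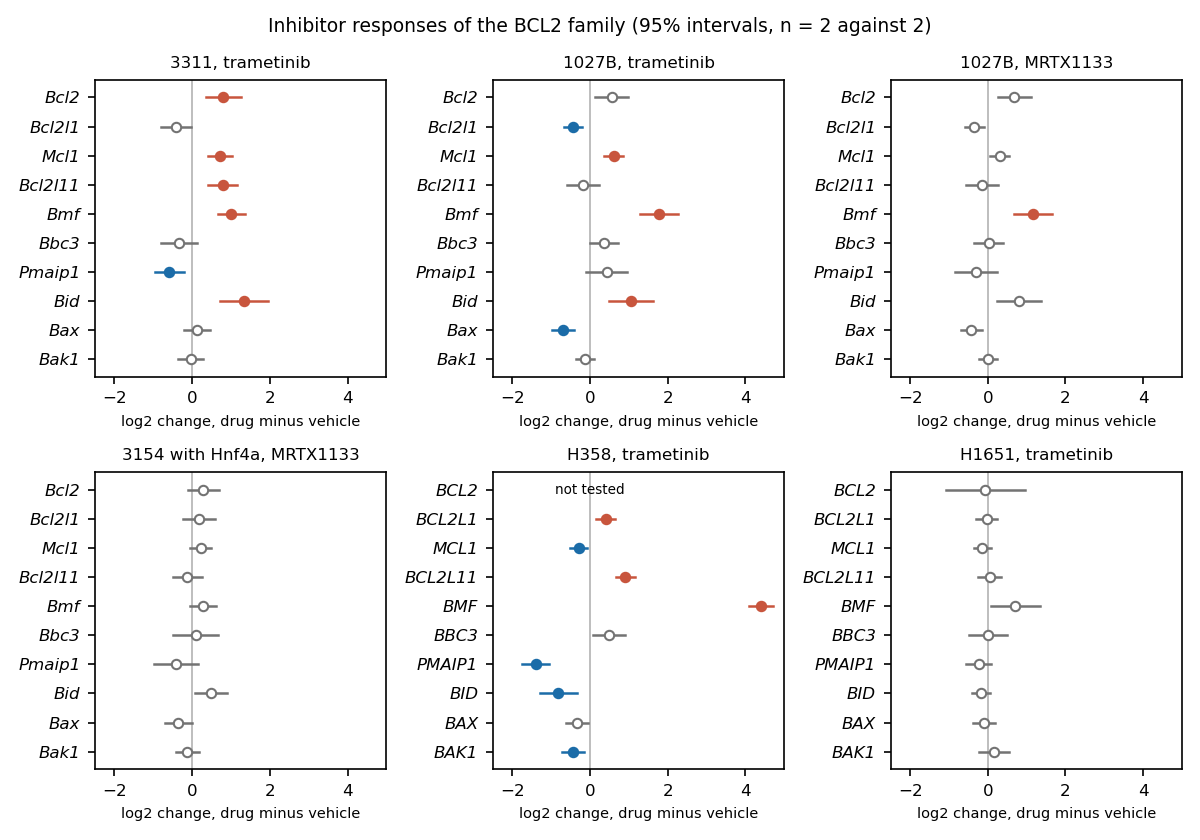
Log2 change of each member with an inhibitor against its own vehicle, with 95% intervals, in 6 comparisons of n = 2 against 2. Filled points passed the threshold (red higher, blue lower); Bmf lies to the right of 0 in every panel and reaches 4.41 in H358.

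Across the 7 inhibitor comparisons, Bmf was above vehicle in 7 and called higher in 4, and it was the member called most often. Its calls in 3311, 1027B and H358 with trametinib stand beside 19.4%, 13.5% and 23.5% of all genes called higher. That in 1027B with MRTX1133 stands beside 3.01%. Bcl2l11 was above vehicle in 3 of 7 and called in 2, 3311 and H358. Pmaip1 was below vehicle in 5 and called lower in 2, again 3311 and H358. Bid rose in both mouse trametinib comparisons and fell in H358, and Mcl1 did the same. Bcl2l1 fell in 1027B and rose in H358. Bbc3 was called in none of the 7 by these counts, which come from edgeR without a replicate block. Some alternative fits called it in H358, 1027B and 3154. The 2 comparisons in 1027B share their vehicle libraries, and doses differ between the lines. How many of all genes reach such counts over the 7 comparisons was not computed.

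In the same organoids, deleting Hnf4a called 8 members at 48 hours with vehicle, 5 with MRTX1133 in both arms and 1 at 2 weeks. At 48 hours with vehicle, the p53 targets Pmaip1 and Bbc3 fell most. Pmaip1 went from 21.5 and 24.8 to 2.96 and 4.33 CPM, a change of -2.67 ± 0.27 in log2, or 6.37-fold lower (adjusted p = 0.000581). Bbc3 went from 25.7 and 18.4 to 9.37 and 7.41 CPM (-1.39 ± 0.26, adjusted p = 0.00609). Bcl2l11 fell from 107 and 88.5 to 70.0 and 63.9 CPM (-0.55 ± 0.17, adjusted p = 0.0405) and Bax from 102 and 129 to 74.6 and 69.2 CPM (-0.68 ± 0.15, adjusted p = 0.012).

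All 3 guardians were higher after deletion in the same libraries. Bcl2 rose from 8.08 and 6.59 to 15.4 and 16.6 CPM (1.13 ± 0.17, adjusted p = 0.00285), Bcl2l1 from 167 and 235 to 330 and 325 CPM (0.71 ± 0.18, adjusted p = 0.0203) and Mcl1 from 199 and 215 to 285 and 296 CPM (0.49 ± 0.12, adjusted p = 0.0179). Bid, a BH3-only gene, also rose, from 7.24 and 9.61 to 13.0 and 14.6 CPM (0.71 ± 0.18, adjusted p = 0.0186). Bmf (-0.17, interval -0.51 to 0.17) and Bak1 (0.05, interval -0.25 to 0.34) did not pass. The 8 called members, 4 in each direction, stand beside 31% of all genes called. The calls of Pmaip1 and Bcl2 held in every alternative fit run, those that left out 1 library included. Without 4OHT replicate 2, the calls of Bbc3 (adjusted p = 0.0615), Bax (0.108), Bid (0.133), Bcl2l1 (0.0997), Bcl2l11 (0.225) and Mcl1 (0.13) were lost, and without 4OHT replicate 1 those of the same genes except Bbc3 (0.0679 to 0.133). Without EtOH replicate 1 those of Bid (0.0543) and Bcl2l11 (0.118) were lost, and a fit of these 2 groups alone lost Bid, Bcl2l1, Bcl2l11 and Mcl1 (0.0567 to 0.0736).

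With MRTX1133 present in both arms, deletion again lowered Pmaip1, from 15.2 and 19.7 to 4.57 and 3.02 CPM (-2.20 ± 0.27, adjusted p = 0.00112). Bcl2 rose from 8.08 and 9.77 to 15.1 and 16.5 CPM (0.83 ± 0.17, adjusted p = 0.00981), Mcl1 from 224 and 257 to 392 and 375 CPM (0.67 ± 0.12, adjusted p = 0.00559) and Bid from 12.4 and 11.3 to 18.6 and 20.1 CPM (0.71 ± 0.17, adjusted p = 0.0189). Bax fell from 86.9 and 93.9 to 69.2 and 60.7 CPM (-0.48 ± 0.15, adjusted p = 0.0488). The 5 called members stand beside 27.7% of all genes. Bbc3, at 23.6 ± 6.4 against 16.9 ± 2.8 CPM, and Bcl2l1, at 225 ± 33 against 255 ± 4.4, did not pass here (adjusted p = 0.188 and 0.493). Bcl2l11, at 100.2 and 79.7 against 59.6 and 69.7 CPM (-0.48, interval -0.86 to -0.09, adjusted p = 0.0686), Bmf (0.20, interval -0.14 to 0.53) and Bak1 (0.17, interval -0.13 to 0.47) did not pass either. The Bax call was also lost with upper-quartile factors (adjusted p = 0.128) and with at least 10 counts in every library (0.0633). The calls of Bax and Bid were lost without any 1 of the 4 libraries (adjusted p from 0.1 to 0.256 and from 0.0519 to 0.117), and that of Bcl2 without EtOH replicate 1 (0.0595) or 4OHT replicate 2 (0.0767). The share of mitochondrial counts was 0.930% and 1.03% with EtOH and MRTX1133 and 1.39% and 1.38% with 4OHT and MRTX1133. Col1a1, the 1 fibroblast marker in the table, was called higher, at 0.115 and 0.121 against 0.473 and 0.426 CPM. The part of either in these changes was not tested.

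Whether deletion acts differently with and without MRTX1133 was tested as an interaction, and no member and no gene was called (0%). An unadjusted p under 0.05 was reached by 1 member and 1150 genes (7.44%), and DESeq2 called no member and 36 genes (0.233%). The largest value among the members was that of Bbc3, 0.91 ± 0.36 (interval 0.08 to 1.74, adjusted p = 0.616). That of Pmaip1 was 0.47 (interval -0.38 to 1.32) and that of Bcl2l1 was -0.53 (interval -1.11 to 0.06). The 4 comparisons in this table share libraries in pairs, so they are not independent.

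At 2 weeks after deletion Pmaip1 was the one member called by edgeR with TMM factors and no replicate block, from 23.2 and 39.8 to 5.38 and 10.3 CPM (-2.01 ± 0.40, adjusted p = 0.0367), beside 9.81% of all genes (4.03% higher, 5.78% lower). The call was lost without 4OHT replicate 1 (-1.62, adjusted p = 0.113) or 4OHT replicate 2 (-2.55, adjusted p = 0.0515). Bcl2 stood at 8.64 and 8.31 against 14.3 and 14.5 CPM (0.77 ± 0.18, adjusted p = 0.0583) and Bid at 17.4 and 19.8 against 27.4 and 29.6 CPM (0.62 ± 0.16, adjusted p = 0.0719), neither with overlap. Both were called with DESeq2 (adjusted p = 0.0223 for Bcl2 and 0.0364 for Bid), beside 15.9% of all genes, and with upper-quartile factors (0.0476 and 0.0489), beside 10.3%. Bcl2l11 (-0.53, interval -0.97 to -0.09), Bbc3 (-0.55, interval -1.13 to 0.04) and Bmf (-0.70, interval -1.42 to 0.03) did not pass. Bcl2l1 (0.04, interval -0.26 to 0.35), Mcl1 (0.11, interval -0.18 to 0.39) and Bax (-0.10, interval -0.46 to 0.26), which were called in the 48-hour experiment with vehicle, did not pass in the 2-week one. These are separate experiments, the time since deletion is not known for the 48-hour one, and the difference between them was not tested. The summed level of the 4 leukocyte markers in this table was 18.6 and 44.7 CPM in the EtOH libraries, where 3 of them exceeded 3 counts, and 10.1 and 13.5 CPM in the 4OHT libraries, where all 4 did. Csf1r accounted for 25.6 CPM of the EtOH mean and 4.29 CPM of the 4OHT mean. The summed endothelial markers stood at 5.93 and 5.08 against 2.17 and 2.55 CPM, and Pecam1, the 1 of them tested, was called lower (-1.37, adjusted p = 0.0394). The share of mitochondrial counts was 1.70% and 1.69% with EtOH and 2.21% and 2.15% with 4OHT. The part of these markers and of this share in the values was not tested.

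**Figure D4:**
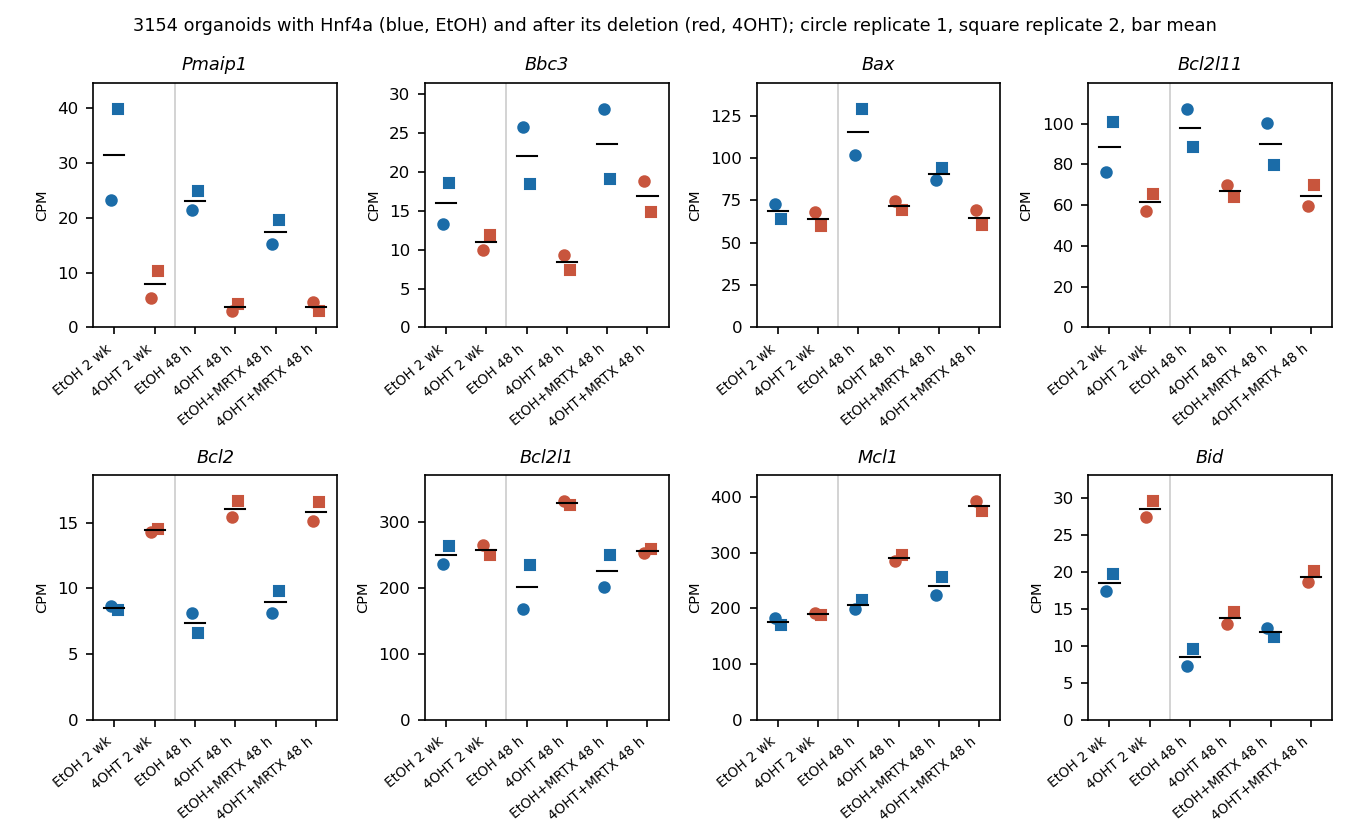
CPM of 8 members in each library of 3154 organoids with Hnf4a (EtOH, blue) and after its deletion (4OHT, red), at 2 weeks on the left of the grey line and in the 48-hour experiment on its right; bars are means of n = 2. Pmaip1 after deletion, from 2.96 to 10.3 CPM, is below every EtOH library in all 3 pairs, and Bcl2 is above.

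Raising HNF4A in H1651 with doxycycline called no member in the fits without a replicate block, with edgeR or DESeq2. These called 1.42% and 2.6% of all genes. An unadjusted p under 0.05 was reached by 3 members and by 12.7% of all genes. BCL2L1 stood at 110 and 103 against 137 and 131 CPM (0.33 ± 0.07, adjusted p = 0.0904). BCL2L11 stood at 26.3 and 30.3 against 22.6 and 21.6 CPM (-0.36, interval -0.61 to -0.11, adjusted p = 0.207) and BMF at 54.4 and 50.9 against 45.5 and 33.1 CPM (-0.42, interval -0.76 to -0.08, adjusted p = 0.275). PMAIP1, the gene that fell in each deletion comparison, differed by 0.13 (interval -0.16 to 0.41, adjusted p = 0.746), and BBC3 by 0.10 (interval -0.21 to 0.42). The other 5 members differed by -0.17 to 0.08. The summed fibroblast markers went from 524 and 579 to 317 and 336 CPM (1 of 5 tested called, lower) and the summed epithelial markers from 4468 and 4466 to 5780 and 6263 CPM (2 of 6 called, higher), and their part in these values was not tested.

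Other members of the family are described from a list of relatives. Bik, another BH3-only gene, moved most often. It rose in 1027B with trametinib, from 1.02 and 1.41 to 13.2 and 8.77 CPM (3.18, adjusted p = 0.0015), and with MRTX1133, to 3.83 and 3.29 CPM (1.56, adjusted p = 0.042). In 3154 it rose with deletion at 48 hours, from 2.86 and 2.98 to 11.1 and 14.3 CPM (2.12, adjusted p = 0.00076), with a like direction when MRTX1133 was in both arms (2.64, adjusted p = 0.00029), and rose again when MRTX1133 was added after deletion, to 52.4 and 38.2 CPM (1.84, adjusted p = 0.013). BIK fell in H358, from 9.79 and 8.54 to 4.30 and 3.65 CPM (-1.20, adjusted p = 0.0015). Bok, an effector-like relative, fell with trametinib in 3311, from 69.9 and 73.9 to 13.3 and 21.2 CPM (-2.06, adjusted p = 0.0012), and in 1027B, from 124 and 136 to 28.6 and 57.7 CPM (-1.59, adjusted p = 0.0099), and BOK rose in H358 (0.72, adjusted p = 0.0037). Bad, a BH3-only gene, rose with trametinib in 3311 (0.75) and in 1027B (0.66). Bad also rose with deletion in the presence of MRTX1133 (0.93, adjusted p = 0.015).

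Bik was at 1 and 4 counts in the vehicle libraries of 3311 and at 95 and 32 with trametinib, and was called higher. Bcl2a1b, one of several near-identical mouse copies of a guardian gene and so uncertain, had 11 and 14 counts there with vehicle and 0 with trametinib, and was called lower. In 1027B with trametinib, the guardian relative Bcl2l2 fell from 48.4 and 57.1 to 35.8 and 38.3 CPM (-0.51, adjusted p = 0.049), and Bcl2l15 was called lower, from 48 and 67 counts to 2 and 9. Bcl2l15 also fell with deletion at 48 hours, with vehicle (-1.42, adjusted p = 0.015) and with MRTX1133 (-2.17, adjusted p = 0.0041). In H358, the BH3-only gene HRK rose from 1.11 and 1.76 to 3.55 and 3.26 CPM (1.25, adjusted p = 0.0077) and BCL2L12 fell from 30.3 and 32.3 to 13.2 and 16.3 CPM (-1.09, adjusted p = 0.00061). At 2 weeks, Bcl2l13, which lies opposite part of Bid, fell from 141 and 148 to 92.5 and 96.3 CPM (-0.61, adjusted p = 0.032). Of the relatives tested, 4 of 10 were called in 3311, 5 of 10 in 1027B with trametinib, 4 of 7 in H358 and 0 of 7 in H1651, beside 39%, 26.7%, 46.8% and 0% of all genes. With deletion 2 of 10 were called at 48 hours with vehicle, 3 of 10 with MRTX1133 and 1 of 8 at 2 weeks, beside 31%, 27.7% and 9.81%. With MRTX1133 1 of 10 was called in 1027B and 1 of 10 in 3154 after deletion, beside 6.27% and 4.64%.

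A list of 25 other genes of the apoptosis pathway held caspases, their inhibitors and death receptors, among others. With trametinib, 12 of 24 tested were called in 3311 (6 higher, 6 lower), 10 of 24 in 1027B (3 higher, 7 lower) and 15 of 25 in H358 (6 higher, 9 lower), beside 39%, 26.7% and 46.8% of all genes. The lists had median log2 changes of -0.12, -0.27 and -0.11 beside 0.01, -0.01 and 0.02 over all genes. Birc5, which encodes survivin and is tied to cell division, was called lower in 3311 (-3.33) and 1027B (-1.48), as was BIRC5 in H358 (-2.41). Fas, a death receptor, rose in 3311 (3.30) and 1027B (2.09). CFLAR, an inhibitor of caspase-8, rose in H358 (1.75, adjusted p = 3.1e-05). TNFSF10, the death ligand TRAIL, rose there too (1.58). Apaf1, the scaffold of the apoptosome, rose in 3311 (1.44, adjusted p = 0.0012). With Hnf4a deletion, 4 of 24 were called at 48 hours with vehicle, all lower, beside 15.7% of all genes called lower, among them the mitophagy receptor Bnip3 (-1.68, adjusted p = 0.00048), a hypoxia target.

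Lists of other p53 targets and of regulators of the family were read beside the deletion changes. Of 8 other p53 targets tested, 5 were called lower at 48 hours with vehicle and 6 with MRTX1133, and none higher, beside 15.7% and 14.5% of all genes called lower, with medians of -0.79 and -0.50. At 2 weeks 2 of 9 were called, both lower, beside 5.78%. Atf4 and Ddit3, stress-response transcription factors known to act on Pmaip1 and Bbc3, were singled out from a list of 10 regulators after their values were seen. At 48 hours with vehicle, Ddit3 fell from 57.7 and 45.1 to 5.38 and 6.34 CPM (-3.13, adjusted p = 0.00063) and Atf4 from 961 and 928 to 270 and 239 CPM (-1.89, adjusted p = 0.00018). In 3311 with trametinib, where Pmaip1 also fell, both were lower as well (Ddit3 by -1.88, Atf4 by -1.62). In H358, where PMAIP1 fell by 1.40, both were called lower (DDIT3 by -0.50, adjusted p = 0.033, and ATF4 by -0.43, adjusted p = 0.012). In 1027B with trametinib, where Pmaip1 did not fall, Atf4 was called lower (-0.98) and Ddit3 was not. Over the whole list, 5 of 10 regulators were called at 48 hours with vehicle (1 higher, 4 lower), 5 in 3311 with trametinib (all lower), 4 in 1027B (1 higher, 3 lower) and 7 in H358 (3 higher, 4 lower), beside 31%, 39%, 26.7% and 46.8% of all genes. Of the p53 targets, 5 of 9 were called lower in 3311, beside 19.6% of all genes, and 9 of 9 were called in H358, 4 higher and 5 lower, beside 46.8%. In 1027B with trametinib 2 of 9 were called, 1 in each direction, beside 26.7%, with a median of 0.03. The part of these genes in the changes of the members was not tested.

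The ERK output list of 10 genes gives the change of pathway output beside those of the members. With trametinib all 10 were called lower in 3311 and in H358 and 9 in 1027B, beside 19.6%, 23.2% and 13.2% of all genes called lower, with medians of -1.92, -3.97 and -2.11. In H1651 the median was -1.83 and none was called. With MRTX1133, 6 were called lower in 1027B (median -1.10, beside 3.26% of all genes), and 0 and 3 in 3154 with and without Hnf4a (medians -0.39 and -0.56, beside 0.0323% and 2.54%). With trametinib, the medians of H1651, 3311, 1027B and H358 were -1.83, -1.92, -2.11 and -3.97, and their Bmf changes, in the same order, were 0.71, 1.01, 1.78 and 4.41. MRTX1133 in 1027B stood outside this order: its median of -1.10 went with a Bmf change of 1.17, above those of H1651 and 3311. In 3154 with and without Hnf4a, the medians of -0.39 and -0.56 went with Bmf changes of 0.27 and 0.64. No relation over these comparisons, given different doses, was tested.

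Genes whose profile was most like that of Bcl2l11 and Bmf were sought among 9577 genes tested in all tables, by Pearson's r of log2 CPM centred on each table over the 34 libraries. For Bcl2l11 the top 3 were FOSL2 (0.92), CPM, which encodes carboxypeptidase M (0.88), and PPP1R13B (0.87). For Bmf they were PRKCZ (0.952), CLIC5 (0.937) and ZFYVE1 (0.937). Bmf and Bcl2l11 had an r of 0.609 with each other. The points share tables and treatments, and H358 spreads most: without its 4 libraries, an alternative chosen after seeing the data, the values were 0.891, 0.846 and 0.824 for Bcl2l11 and 0.883, 0.836 and 0.816 for Bmf.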

How the data were processed

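RNA sequencing counts were analysed for 34 libraries in 17 groups of 2. Poly(A) RNA was made into strand-specific libraries and read from both ends, per the labels' protocols. The authors deposited raw read counts per gene, not normalized. The submitters' processing notes name cutadapt 3.5, STAR 2.7.6a, featureCounts 1.6.3 and the builds mm10, mm39 and hg38, without saying which table used which mouse build. The annotation is not given in the sources used here. The columns of the 3311 table name the treatment and replicate but no line, and were assigned by the table's name.

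Each table was fitted separately with edgeR 4.0.16 in R 4.3.3 (filterByExpr, TMM, quasi-likelihood test, Benjamini-Hochberg over the genes tested, threshold 0.05). All groups of a table shared 1 fit, and the 8 libraries of the H358 and H1651 trametinib tables were joined for the difference between the lines. SE is the absolute change divided by the square root of F. The scripts were tested on simulated counts. Exons and their lengths came from GENCODE M21, which held 16538 of 16553, 18336 of 18356, 17411 of 17979 and 17243 of 17260 identifiers of the mouse tables, and promoters from RefSeq. A group at 3 counts or fewer gave no fold, and such limits cover counting error only. With 2 libraries a group, no exact permutation test can reach the threshold, so all p values come from these fits.

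Alternatives were RLE and upper-quartile factors, no filter, at least 10 counts in every library, the replicate number as a block, DESeq2 1.42.0, only the 2 groups compared, and leaving out each library. Replicate differences of the 1027B groups correlated across genes by 0.243, 0.372 and 0.414, so its numbers were taken as pairs, a pairing read from the data and not from the labels. A table of 2 groups has 1 such correlation, too few for this rule. The members, the lists and the rule that all members are described and that called relatives and up to 3 called pathway genes per comparison may be named were chosen with earlier results of these data known. No replicate pair agreed within sampling noise. Some items, part of the mouse genotypes included, are not reported here.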

Additional observations from a re-analysis of the deposited data

Results flagged for a closer look

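The trametinib response differed between H358 and H1651, at the same dose and time, for 3 members by a test of the difference itself (edgeR, 8 libraries). The log2 difference, H358 minus H1651, was 3.72 for BMF (adjusted p = 0.000365), 0.89 for BCL2L11 (adjusted p = 0.0047) and -1.14 for PMAIP1 (adjusted p = 0.00806).

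With trametinib, 3 members lay on opposite sides of their vehicle in the 3311 cells and in the 1027B organoids, in both treated libraries of each. How many of all genes did so was not computed, so this count is a description only. Bax in 3311 did so narrowly, at 52.2 and 61.2 CPM with vehicle and 61.7 and 61.7 CPM with trametinib. Bbc3 differed by -0.34 in 3311 and 0.36 in 1027B, Pmaip1 by -0.59 and 0.44, and Bax by 0.12 and -0.70. Without a replicate block, Pmaip1 in 3311 and Bax in 1027B passed the threshold and the other 4 changes did not. With the block, Bbc3 in 1027B passed as well (adjusted p = 0.0359). The difference between the lines was not tested, and the doses were 50 nM and 10 nM.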

How the results depend on the processing

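Of 898 member changes recomputed with another scaling, filter, block, tool or set of groups, 834 kept their direction and side of the threshold, 8 were no longer called, 47 became called and 9 changed sign, and of 628 recomputed without 1 library the counts were 528, 46, 7 and 47. No change that was called by the main design changed sign. Bak1 with MRTX1133 after deletion, -0.00018 by the main design, was 0.043 with upper-quartile factors, 0.00896 with at least 10 counts in every library, 0.0058 with the 2 groups alone and 8.6e-06 with the replicate block, and Bcl2 there was 0.028 with upper-quartile factors. The interaction of Bid, -0.0016 by the main design, was 0.0200 with RLE factors, 0.0126 with upper-quartile factors, 0.00047 with at least 10 counts and 0.0203 with DESeq2. With the replicate block, the count of genes called went from 1421 to 4563 (2-week deletion), 247 to 3048 (doxycycline), 3880 to 6540 (1027B trametinib), 913 to 3515 (1027B MRTX1133), 0 to 2050 (1027B drug against drug), 0 to 1881 (H1651 trametinib) and 4087 to 8472 (H358 against H1651). With DESeq2, the count of genes called went from 1421 to 2303 (2-week deletion), 247 to 451 (doxycycline), 913 to 1627 (1027B MRTX1133), 0 to 712 (1027B drug against drug), 0 to 44 (H1651 trametinib), 54 to 330 (3154 MRTX1133 with Hnf4a), 717 to 1334 (3154 MRTX1133 after deletion) and 0 to 36 (interaction). In a fit of the 2 groups compared alone, the count of genes called went from 0 to 1 (1027B drug against drug), 54 to 0 (3154 MRTX1133 with Hnf4a), 717 to 3888 (3154 MRTX1133 after deletion) and 4795 to 3101 (48-hour deletion with vehicle). With no filter, the count of genes called went from 0 to 2 (H1651 trametinib). With the replicate block, the count of members called went from 1 to 6 (2-week deletion), 0 to 3 (doxycycline), 1 to 6 (1027B MRTX1133), 0 to 2 (1027B drug against drug), 0 to 2 (H1651 trametinib), 0 to 1 (3154 MRTX1133 after deletion) and 3 to 6 (H358 against H1651). With DESeq2, the count of members called went from 1 to 3 (2-week deletion), 1 to 4 (1027B MRTX1133) and 0 to 3 (3154 MRTX1133 after deletion). In a fit of the 2 groups compared alone, the count of members called went from 0 to 5 (3154 MRTX1133 after deletion) and 8 to 4 (48-hour deletion with vehicle). With upper-quartile factors, the count of members called went from 1 to 3 (2-week deletion) and 0 to 1 (3154 MRTX1133 after deletion). With at least 10 counts in every library, the count of members called went from 0 to 1 (3154 MRTX1133 after deletion). The labels pair no samples. 1027B has 3 pairs of groups, all correlated, while each 2-group table has 1, too few for that rule, so its block is given only here. Replicate deviations correlated by 0.427 (2-week deletion), 0.318 (doxycycline), 0.126 (3311), 0.318 (H358), 0.623 (H1651) and from -0.251 to 0.549 (48-hour 3154). The block ended 1 call, that of Bax in the 48-hour deletion with MRTX1133 (adjusted p = 0.06), and added calls of Bbc3, Bcl2l11, Bmf, Bid and Bcl2 (2-week deletion), BMF, BCL2L11 and BCL2L1 (doxycycline), Bcl2l1 (3311), BBC3 and BAX (H358, adjusted p = 0.0073 and 0.0106), BMF and MCL1 (H1651 trametinib, 0.72 with adjusted p = 1.6e-10 and -0.14 with 0.0491), Bbc3 (3154 MRTX1133 after deletion and 48-hour deletion with MRTX1133), and BID, BAK1 and BCL2L1 (H358 against H1651). Leaving out 1 library at a time gave these ranges of genes called: 182 to 378 (doxycycline), 1724 to 5946 (48-hour deletion with vehicle), 1748 to 2834 (48-hour deletion with MRTX1133), 324 to 2553 (2-week deletion), 0 to 0 (interaction), 0 to 2 (1027B drug against drug), 126 to 353 (1027B MRTX1133), 0 to 22 (3154 MRTX1133 after deletion), 0 to 288 (3154 MRTX1133 with Hnf4a), 1352 to 2835 (1027B trametinib), 3833 to 6218 (3311 trametinib), 0 to 64 (H1651 trametinib), 6366 to 8904 (H358 trametinib) and 2162 to 3725 (H358 against H1651). Leaving out 1 library at a time gave these ranges of members called: 0 to 1 (doxycycline), 2 to 8 (48-hour deletion with vehicle), 2 to 3 (48-hour deletion with MRTX1133), 0 to 3 (2-week deletion), 0 to 0 (interaction), 0 to 0 (1027B drug against drug), 0 to 1 (1027B MRTX1133), 0 to 0 (3154 MRTX1133 after deletion), 0 to 0 (3154 MRTX1133 with Hnf4a), 1 to 5 (1027B trametinib), 4 to 6 (3311 trametinib), 0 to 0 (H1651 trametinib), 4 to 7 (H358 trametinib) and 3 to 4 (H358 against H1651). Changes of sign without 1 library gave these ranges of log2 change: doxycycline (BCL2 -0.57 to 0.38 and BID -0.10 to 0.00918), 48-hour deletion with vehicle (Bak1 -0.0571 to 0.14), 2-week deletion (Bak1 -0.0321 to 0.30 and Bcl2l1 -0.0409 to 0.14), interaction (Bcl2l11 -0.0848 to 0.27 and Bid -0.22 to 0.19), 1027B drug against drug (Bcl2 -0.0231 to 0.29 and Bcl2l11 -0.12 to 0.21), 1027B MRTX1133 (Bak1 -0.0381 to 0.0968, Bbc3 -0.12 to 0.21 and Bcl2l11 -0.30 to 0.0636), 3154 MRTX1133 after deletion (Bak1 -0.0958 to 0.10, Bcl2 -0.0797 to 0.0479, Bcl2l11 -0.17 to 0.059 and Pmaip1 -0.27 to 0.36), 3154 MRTX1133 with Hnf4a (Bbc3 -0.24 to 0.36, Bcl2l1 -0.0609 to 0.43 and Bcl2l11 -0.32 to 0.0355), 1027B trametinib (Bcl2l11 -0.35 to 0.027), 3311 trametinib (Bak1 -0.11 to 0.0362), H1651 trametinib (BAK1 -0.0354 to 0.32, BBC3 -0.0608 to 0.0696, BCL2 -0.48 to 0.43, BCL2L1 -0.10 to 0.056 and BCL2L11 -0.0303 to 0.12). A fit without 1 library assumes that the lone library varies like the others. The cause of these differences was not tested. Without the 4 H358 libraries, an alternative chosen after seeing the data, the r of CLIC5 and ZFYVE1 with BMF fell from 0.937 for each to 0.836 and 0.816. With 2 libraries a group, changes of low genes such as BCL2 in H358, at 1 count or fewer, were not measurable at this depth.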
